A study of Mus musculus with 2 samples.

Results

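Protein disulfide isomerases and the oxidases that recharge them were read through every probe set whose platform gene symbol is P4hb, Pdia2, Pdia3, Pdia4, Pdia5, Pdia6, Txndc5, Erp44, Ero1a or Ero1b. These 10 genes had 19 of the 45101 probe sets on the array and were 10 of the 18193 genes it names. RNA came from the whole pancreas of male offspring of C57BL/6J mice, an inbred laboratory strain. In the control group the mothers ate a control diet during pregnancy, and in the methionine-deficient group a diet short of methionine, an amino acid which the body cannot make for itself. Both groups were weaned at 3 weeks, ate control diet from then on, and were 10 weeks old at collection. RNA of each group was pooled and put on 1 array, giving a control pool and a methionine-deficient pool, and the number of mice in a pool is not given in the sources used here. With n = 1 array per group there was no replicate, no test and no p-value.

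Proteins that leave the cell through the endoplasmic reticulum (ER) are held together by disulfide bonds between cysteines. Disulfide isomerases form these bonds and reshuffle wrong ones with pairs of reactive cysteines, and Ero1 oxidases take up the electrons and pass them to oxygen. Acinar cells, which secrete digestive enzymes, and beta cells, which secrete insulin, both depend on this chemistry.

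Values are the linear intensities deposited for each probe set, a group of short probes near the 3' end of a transcript. A difference is that of log2(intensity + 1), methionine-deficient minus control, so a negative value is a lower signal in the methionine-deficient pool. As its error stands the probe-set spread, a robust SD of the difference between probe sets of a gene at like levels, which covers probe noise within these 2 arrays and not the variation between mice. It was 0.18 above an intensity of 1477 and widened to 1.20 between 98.7 and 150.3. A gene was represented by its brightest probe set, and all 10 members passed the level filter (mean log2 level at or above the median of the array, an intensity of 150.3).

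Of the 10 members, Pdia3 and Pdia4 had lower signals in the methionine-deficient pool by more than the probe-set spread, and the other 8 differed by less than it. Of all genes past the filter, 16.8% were lower and 17.2% higher by more than their spread, so 2 of 10 members lower is close to the share of all genes, and no member was higher by that much. Pdia3 was 1.42-fold lower and Pdia4 1.33-fold lower. The brightest members, Pdia2, P4hb and Ero1b, differed by at most 0.05 on the log2 scale. In all, 7 members were lower and 3 higher, with a median log2 difference of -0.06; with median or quantile scaling P4hb changed sides and 8 were lower. Of all 11848 genes past the filter 50.0% were lower, and their median was 0.00 to 2 decimals. No member reached a 2-fold difference in either direction, against 6.68% of genes past the filter, a share that includes many genes dimmer than most members.

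The order of the members by signal was the same in both pools at all 10 places: Pdia2, P4hb, Ero1b, Pdia6, Pdia3, Txndc5, Erp44, Pdia4, Ero1a and Pdia5. With the mean over a gene's probe sets 8 of the 10 places were the same. Probe sets bind their targets with unequal strength, so this is an order of signals and not of transcript amounts. Pdia2 lay at percentile 99.9 of all probe sets in both pools, and Pdia5 at 69.5 (control) and 73.2 (methionine-deficient).

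**Figure D1:**
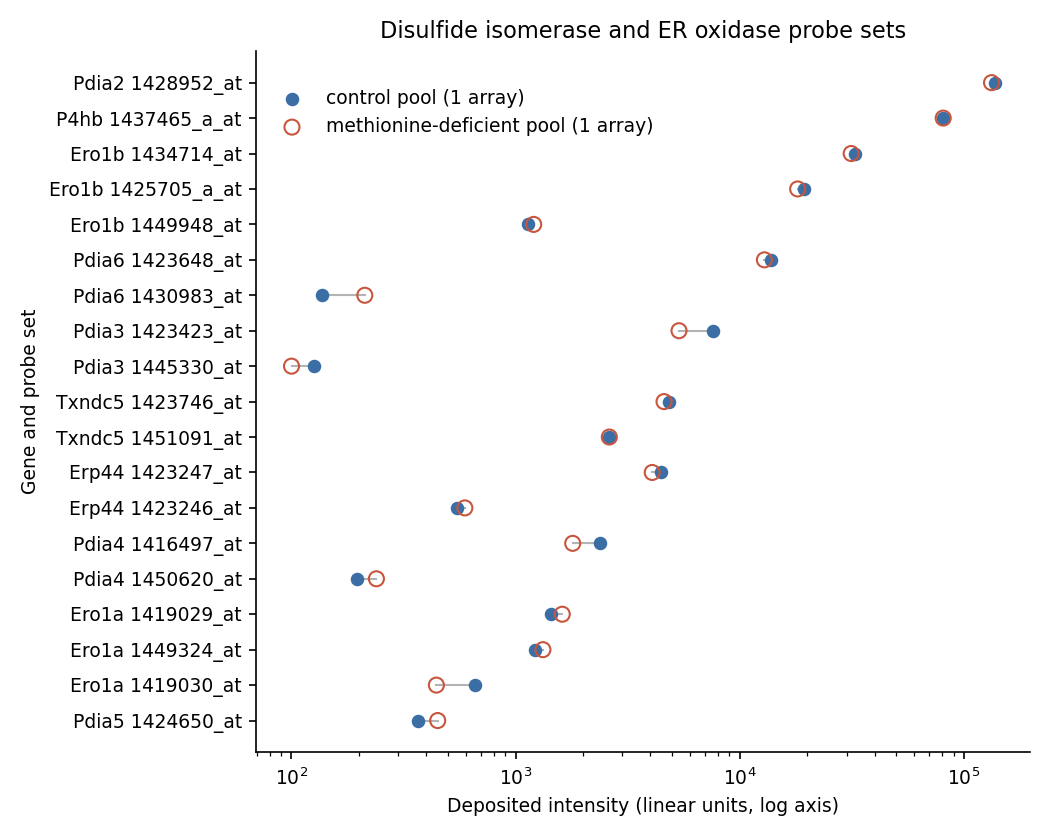
Deposited intensity (log axis) of the 19 probe sets of the 10 genes, 1 row each, with filled circles for the control pool and open circles for the methionine-deficient pool. The circles lie apart most clearly among the bright probe sets for Pdia3 (7626 and 5362) and Pdia4 (2384 and 1799), and coincide for P4hb (80642 and 80903).

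The isomerases with the highest signals were close in both pools. Pdia2, the isomerase made mainly by pancreatic acinar cells, had intensities of 137182 (control) and 132936 (methionine-deficient). That is a log2 difference of -0.05 (spread 0.18), and its probe set ranked 52 and 54 on the arrays. P4hb is the founding member of the family and also a subunit of collagen prolyl 4-hydroxylase and of the microsomal triglyceride transfer protein. Its intensities were 80642 and 80903, a log2 difference of 0.00 (spread 0.18), with rank 101 in both. Both genes were read by a single probe set. Signals this near the top of the range, which ended at 263446 and 266191, can be compressed.

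Pdia6, an isomerase that works beside the chaperone Hspa5 and restrains sensors of unfolded proteins, had 13787 (control) and 12893 (methionine-deficient). The difference of -0.10 was smaller than the spread of 0.18. Its dim second probe set, 1430983_at, went the other way, from 137 to 213 (0.63; spread 0.77), and passed the level filter only through its value in the methionine-deficient pool. Both differences were within their spread.

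Pdia3 pairs with the lectin chaperones calnexin and calreticulin and acts on glycoproteins. Its bright probe set, 1423423_at, had 7626 (control) and 5362 (methionine-deficient), a log2 difference of -0.51, or 2.83 times the spread of 0.18. The probe set moved from rank 857 to rank 1239 on the array. Its other probe set, 1445330_at, was below the level filter at 126 and 100.1 (-0.33; spread 1.20) and shared the direction. Its spread exceeds its difference, so it adds little on the size.

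Pdia4 is a larger isomerase found in complexes of ER chaperones. Probe set 1416497_at had 2384 (control) and 1799 (methionine-deficient), a log2 difference of -0.41, or 2.26 times the spread of 0.18. That spread was taken over all levels above 1477, and between 661 and 1477 it was 0.31. The multiple may therefore be too high for a level this near the lower end. Its second probe set, 1450620_at, went the other way at 196 and 239 (0.29; spread 0.77). With the mean over both probe sets in place of the brightest, the difference of Pdia4 was -0.058, so its lower value rests on 1 probe set.

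Among the 2370 brightest genes past the filter, those with a mean level of at least 1800 in intensity, 43 (1.81%) were as low as Pdia3 or lower, and 80 (3.38%) as low as Pdia4 or lower. Lower by at least 0.32 on the log2 scale were 2 of the 10 members, Pdia3 and Pdia4, beside 19.5% of all genes past the filter. Those 2370 brightest genes hold 8 of the members, and there it was 2 of 8 beside 6.62%, while by more than the spread 2 of these 8 were lower beside 19.2%. No member was higher by at least 0.32, beside 21.5% of genes past the filter. That share includes many genes dimmer than most members, and it was not taken for the 2370 brightest genes. The lack of higher members is therefore not read as a result. Lower by any amount were 7 of these 8 members, beside 55.8% of the 2370 genes, whose median log2 difference was -0.02 against -0.08 for the 8 members.

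**Figure D2:**
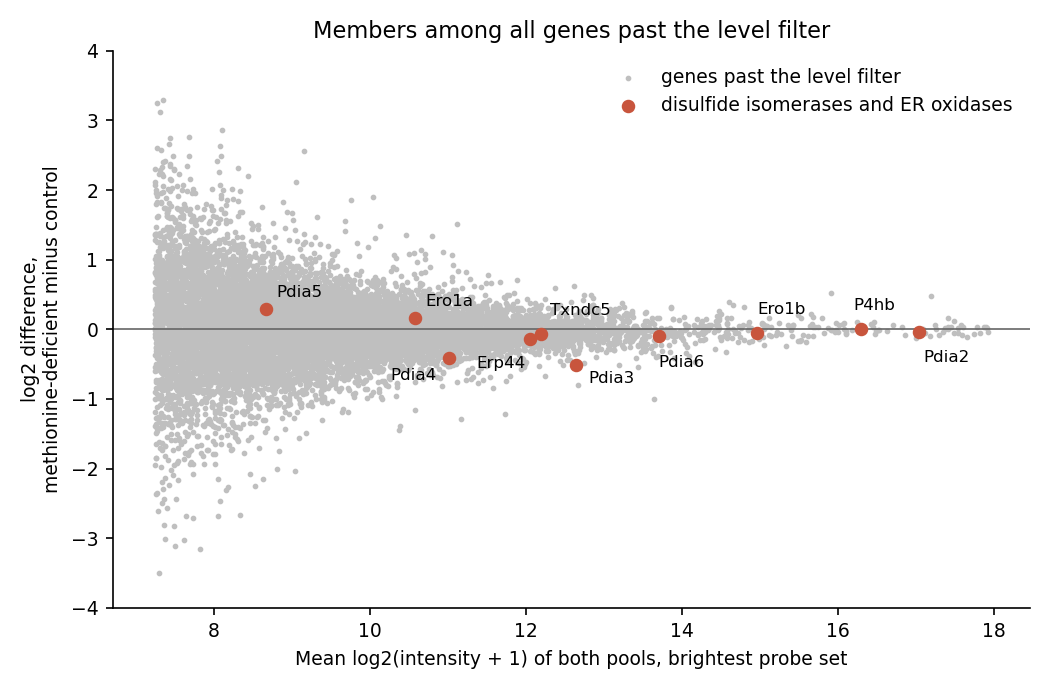
Log2 difference (vertical axis, methionine-deficient minus control) against mean log2 level (horizontal axis) for the 11848 genes past the filter (grey) and the 10 members (red). The grey cloud narrows as the level rises; Pdia3 (-0.51) and Pdia4 (-0.41) sit toward its lower edge, while Pdia2, P4hb and Ero1b lie near 0.

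Txndc5 is an isomerase with several thioredoxin-like domains that is abundant in secretory cells. Its probe sets were both bright and gave like values. The first had 4820 and 4597 in the control and methionine-deficient pools (log2 difference -0.07), and the second had 2623 and 2620 (0.00), each beside a spread of 0.18. Txndc5 was, with Pdia3, one of 2 members whose probe sets all had the same sign, among the 7 members with several.

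Erp44 retains Ero1 oxidases and unassembled client proteins such as IgM subunits early in the secretory pathway. It had 4476 (control) and 4072 (methionine-deficient) from its brightest probe set (log2 difference -0.14; spread 0.18). Its other probe set had 546 and 594 (0.12; spread 0.46). Neither value left its spread, and the signs differed.

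Pdia5, an isomerase tied to activation of the unfolded protein sensor Atf6, was the dimmest member and the farthest on the higher side. It had 368 (control) and 450 (methionine-deficient) in its only probe set (log2 difference 0.29; spread 0.46). The difference was 0.63 times the spread.

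The oxidases Ero1b and Ero1a differed little. Ero1b, the form enriched in pancreas, had 32617 and 31445 in the control and methionine-deficient pools from its brightest probe set (log2 difference -0.05; spread 0.18). Its other probe sets had 19280 and 18139 (-0.09) and 1136 and 1205 (0.09; spread 0.31). All 3 lay within their spread, and their signs were mixed.

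Ero1a, the widely expressed form that is induced by low oxygen, had 1446 (control) and 1616 (methionine-deficient) from its brightest probe set (log2 difference 0.16; spread 0.18). The second had 1225 and 1325 (0.11; spread 0.31). The third, 1419030_at, went from 659 to 443 (-0.57; spread 0.46), past its spread and opposite in sign to the other two. As the mean over its probe sets Ero1a had -0.10, so it has no settled direction.

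Over all member probe sets past the filter, 10 of 18 were lower, beside 49.6% of all such probe sets that name 1 gene, and their median log2 difference was -0.02. Probe sets of a gene read the same RNA and are not replicates.

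**Figure D3:**
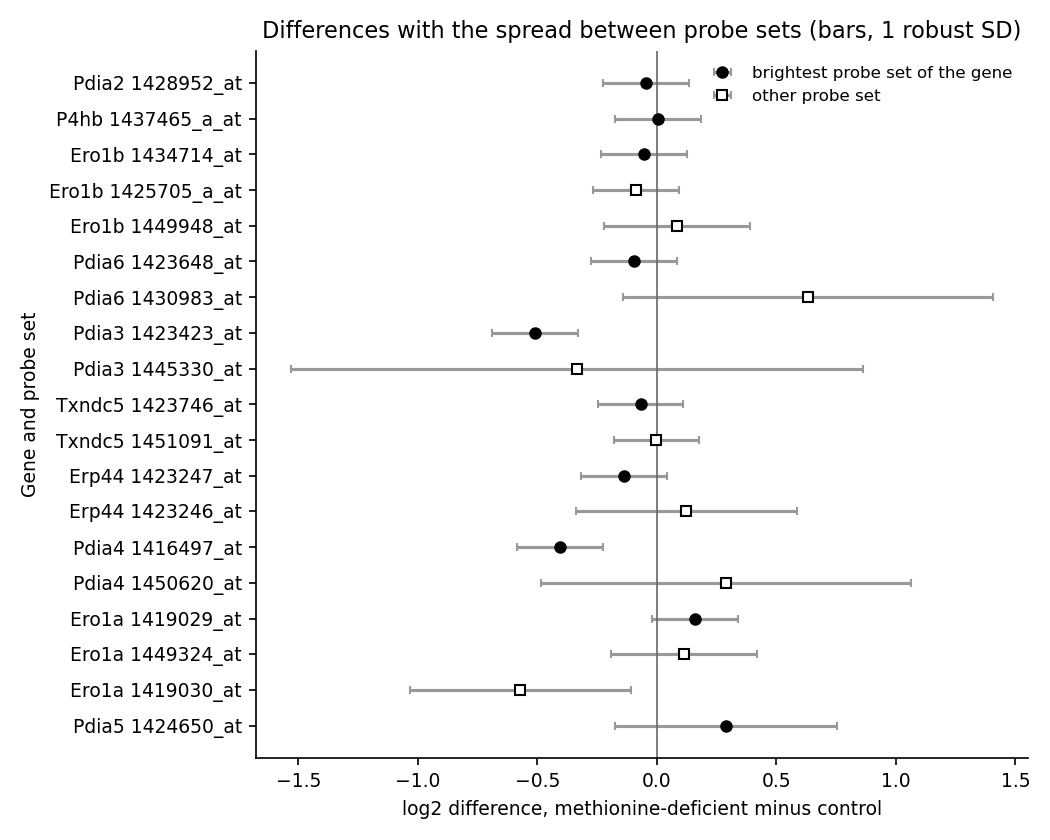
Log2 difference of each of the 19 probe sets, with bars of 1 probe-set spread; filled circles mark the brightest probe set of a gene and open squares the others. Among the brightest probe sets the bars of Pdia3 and Pdia4 lie wholly below 0 and those of the other 8 genes include 0; among the others the bar of 1 Ero1a probe set (-0.57) lies below 0.

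Markers of the cell types a pancreas can hold were read on the same arrays. Acinar markers were close, from -0.06 to 0.03 on the log2 scale in the 5 on the array under this annotation. Their signals, like that of Pdia2, lay near the top of the range and can be compressed, so small differences may be hidden. The beta cell hormone gene Ins2 had 93733 and 93461. The label pancreas was borne out by these defining markers. Of the 5 beta cell markers past the filter 3 were higher and 2 lower, from -0.52 to 0.60, and Nkx6-1 was below the filter. Plasma cells are rich in ER folding enzymes, and the 5 of their 6 markers that passed the filter were all lower in the methionine-deficient pool, with a summed intensity of 19078 (control) and 12279 (methionine-deficient). Among them Ighm had -1.22 (spread 0.18), Igha -1.39 (spread 0.31) and Jchain -0.84 (spread 0.18), each past its spread. Mzb1 at -0.42 (spread 0.46) and Derl3 at -0.12 (spread 0.18) lay within theirs. Derl3 (7018 and 6478) was the largest part of the sum, and Tnfrsf17 was below the filter at 25.0 and 27.9. The part of plasma cells in the lower Pdia3 and Pdia4 signals was not tested. In bulk RNA, fewer cells of a type and less RNA per cell cannot be told apart.

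Of fibroblast markers 4 of 5 were higher (median 0.17), and of adipocyte markers 3 of 3 were lower (median -0.21). Among the higher fibroblast markers only Col1a2 (0.36, spread 0.18) passed its spread. Col3a1 had 0.11 (spread 0.18), Lum 0.17 (spread 0.31) and Col1a1 0.22 (spread 0.60). Of 4 duct markers 3 passed the filter and were higher (median 0.62), and Cftr was below it. Krt19 at 0.19 (spread 0.31) lay within its spread. Krt7 had 0.74 and Sox9 0.62, each beside a spread of 0.60, and a second Sox9 probe set had 0.23 (spread 0.60). Among the adipocyte markers Cidec had -1.59, and Fabp4 had -0.21 in its brightest probe set but 0.82 (3855 to 6807; spread 0.18) in another, 1451263_a_at, so its direction is not settled. The 4 macrophage markers were 2 higher and 2 lower, and C1qa, a complement gene of macrophages, was 2.02-fold higher in the methionine-deficient pool (1181 to 2381; log2 difference 1.01, spread 0.18). The T cell gene Cd8a had 0.53 (spread 0.31) from 1440164_x_at, whose suffix marks several possible transcripts. Its other probe set past the filter had 0.44 (spread 0.77), those below it had mixed signs, and Cd3e and Cd3g were below the filter. Of the genes listed for liver, Alb had -0.53 (279 to 193), within its spread of 0.60. Ttr had -0.25 (13714 to 11572; spread 0.18), and Apoa1 was below the filter. With levels so far apart, Alb and Ttr give no settled reading of liver. The ratio of 3' to 5' array controls, a sign of RNA quality, was 1.46 and 1.76 in the control and methionine-deficient pools for Actb and 0.973 and 1.11 for Gapdh. The part of these in the members' values was not tested.

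Promoters of the members were set beside these values because several isomerase genes are known targets of the unfolded protein response, whose factors bind the ER stress element. That element is CCAAT and CCACG with 9 bases between them, and both strands were searched. RefSeq windows (GRCm38.p6) of 250 bases before to 50 after each start site were found for all 10 members. Only Pdia6 and Ero1b held the element in full, as did 0.119% of all 32851 windows. Allowing 1 of its 10 fixed bases to differ, a setting added after the data were seen, 6 members held it, namely Pdia2, Pdia3, Pdia4, Pdia6, Erp44 and Ero1b, beside 1.5% of all windows. In Pdia2 this match crosses the start site. A shorter form, ATTGG and CCACG with 1 base between them, was in no member's window and in 0.0365% of all windows. TGACGTGG, bound by Xbp1-type factors, was in 1 of 3 Txndc5 windows and in 0.676% of all windows. Its last bases, CGTGG, are the reverse complement of CCACG, so it overlaps with the second part of the element.

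The 250 bases before the start site are shown for the lower genes Pdia3 and Pdia4 and for both genes with the full element, 5' to 3' on the gene's strand. Capitals mark the element, which in Pdia3 and Pdia4 differs at 1 of the 10 fixed bases. Pdia3 lies at chr2:121413652-121413901 (plus strand), Pdia4 at chr6:47813513-47813762 (minus strand), Pdia6 at chr12:17266339-17266588 (plus strand) and Ero1b at chr13:12565633-12565882 (plus strand).
Pdia3: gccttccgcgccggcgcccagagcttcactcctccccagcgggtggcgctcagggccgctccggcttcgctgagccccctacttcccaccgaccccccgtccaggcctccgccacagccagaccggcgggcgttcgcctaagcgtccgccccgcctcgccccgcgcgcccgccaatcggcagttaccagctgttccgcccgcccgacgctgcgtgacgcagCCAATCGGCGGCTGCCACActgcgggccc
Pdia4: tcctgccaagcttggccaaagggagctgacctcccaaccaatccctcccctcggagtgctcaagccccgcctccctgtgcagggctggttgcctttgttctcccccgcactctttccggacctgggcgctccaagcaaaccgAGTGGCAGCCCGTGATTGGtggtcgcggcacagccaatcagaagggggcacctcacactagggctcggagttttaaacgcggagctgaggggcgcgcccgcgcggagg
Pdia6: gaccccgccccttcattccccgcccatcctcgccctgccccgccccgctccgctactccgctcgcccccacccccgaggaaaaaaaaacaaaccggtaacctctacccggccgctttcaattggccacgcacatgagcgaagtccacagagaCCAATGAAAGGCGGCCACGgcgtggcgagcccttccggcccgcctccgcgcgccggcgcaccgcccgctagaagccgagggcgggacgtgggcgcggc
Ero1b: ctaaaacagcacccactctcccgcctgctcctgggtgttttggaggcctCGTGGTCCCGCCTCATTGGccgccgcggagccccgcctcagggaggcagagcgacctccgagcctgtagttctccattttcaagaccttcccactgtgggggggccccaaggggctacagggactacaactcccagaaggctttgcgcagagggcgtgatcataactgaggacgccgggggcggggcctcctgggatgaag

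The match begins 29 bases before the start site in Pdia3, 108 in Pdia4, 98 in Pdia6 and 201 in Ero1b, and it lies on the opposite strand in Pdia4 and Ero1b. The genes with the full element, Pdia6 and Ero1b, had log2 differences of -0.10 and -0.05. With 1 base changed it was in Pdia3 and Pdia4, but also in Erp44 (-0.14) and Pdia2 (-0.05), both within their spread of 0.18. That looser setting was added after the values were seen, and a tie between the element and the differences was not tested. Over all genes with the full element and a level past the filter, 11 of 15 were lower, with a median log2 difference of -0.10, the value of Pdia6 itself. With 1 base allowed to differ it was 125 of 224, with a median of -0.06. Of all genes past the filter 50.0% were lower. These counts include members, Pdia6 and Ero1b in the first and 6 members in the second, so they are no separate evidence on the element. A match is a description of the letters and does not show that a factor binds there.

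Other genes of oxidative folding were taken from lists drawn up from known function. Of 15 further family members with thioredoxin-like folds, 12 passed the filter, 7 lower and 5 higher, with a median log2 difference of -0.03, close to that of the 10 members. The membrane isomerase gene Tmx2 had 0.35 in its brightest probe set and -0.49 in the other, and Tmx4 had -0.33 (spread 0.46) and 0.38 (spread 0.77). Dnajc10, a reductase that works with Hspa5, had -0.30 in its brightest probe set and 0.26 and 0.71 in the others, each beside a spread of 0.31, and the highest of these, 1452230_at, went from 729 to 1196. Agr2, Agr3 and Pdilt were below the filter. Of 7 further ER oxidants 4 were lower and 3 higher, with a median of -0.09. Prdx4, which drives disulfide formation by using peroxide, had 51968 (control) and 48853 (methionine-deficient), a log2 difference of -0.09. Its other probe sets past the filter were higher, 1416166_a_at by 0.42. Gpx8 had 0.57 (spread 0.60), Qsox2 0.17 (spread 0.18) and Gpx7 -0.13 (spread 0.77).

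Direct partners of the isomerases numbered 7 past the filter, with a median of -0.26. Of these 5 were lower, beside 50.0% of all genes past the filter. Calnexin (Canx) and calreticulin (Calr), the lectin chaperones that hand glycoproteins to Pdia3, had -0.34 and -0.32, each beside a spread of 0.18. Other probe sets of Canx had -0.03 and -0.10, and those of Calr -0.35 and 0.32, so the direction of Calr differs among its probe sets. P4ha2, a catalytic subunit of the prolyl 4-hydroxylase that holds P4hb, had -0.64 (spread 0.46), and P4ha3 was below the filter. Without probe sets that can bind several transcripts the median of the partners was -0.06.

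The ER chaperones, a list whose lower direction was already known from earlier results on these arrays, had 9 of 10 genes lower and a median of -0.21. Without probe sets that can bind several transcripts it was 7 of 8 and -0.11. Of all genes past the filter 50.0% were lower, and of the 2370 brightest 55.8%, with a median of -0.02. Beside spreads of 0.18, Creld2, a cysteine-rich ER protein with disulfide isomerase activity, had -0.52, the stress-induced chaperone Hyou1 had -0.40, Hsp90b1 had -0.32 and Hspa5 had -0.23. A second bright probe set had -0.06 both for Hyou1 and for Hsp90b1, so the size of their differences rests on the brightest one. Other chaperone genes were closer, with -0.05 for Dnajc3, -0.09 for Manf and -0.13 for Dnajb11. The exception in direction was the co-chaperone Dnajb9 at 0.35. The chaperones spanned -0.52 to 0.35, a range that holds all 10 members.

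**Figure D4:**
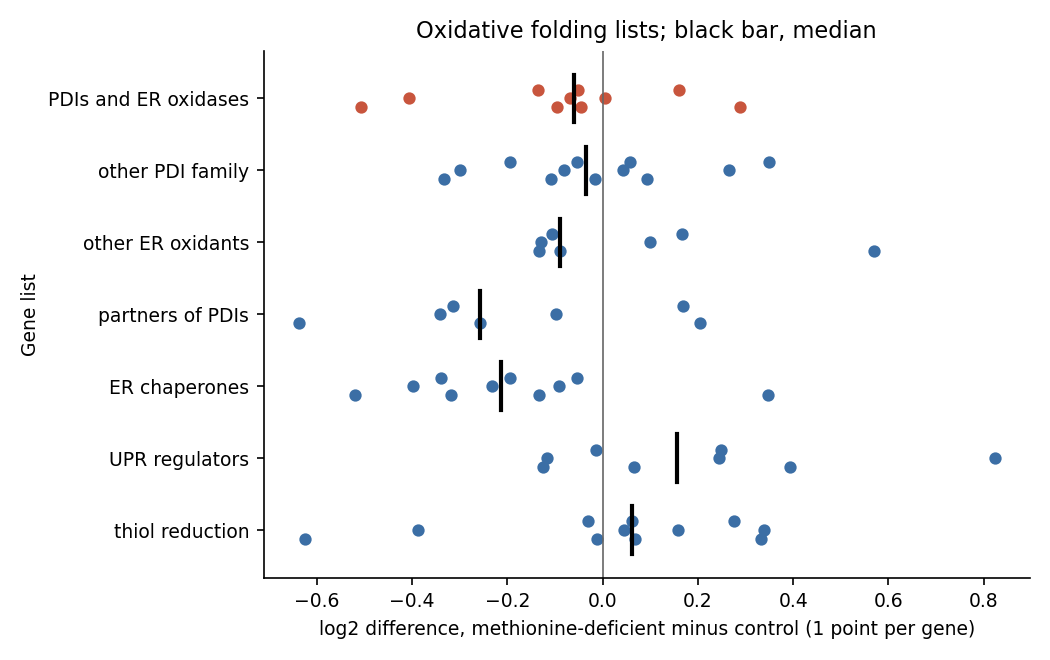
Log2 difference (horizontal axis, methionine-deficient minus control) of each gene past the filter, 1 point per gene, in the list of the 10 members (red) and 6 related lists (blue); black bars are medians and vertical position within a row has no meaning. The medians are -0.06 for the members, -0.26 for the partners and -0.21 for the ER chaperones.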

How the data were processed

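Per the labels' protocols, total RNA (Trizol) was turned into biotin-labelled cRNA by the 3' IVT Express chemistry of Affymetrix, with 1 pooled sample per chip. The authors deposited 1 linear intensity per probe set. How they summarised, background-corrected and scaled it is not stated in the sources used. No detection calls were used, and the number of arrays limits the precision.

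Probe sets were named from the platform annotation of GEO, updated to current symbols through gene identifiers. Of 45101 probe sets, 64 were array controls, 34945 named 1 gene, 932 several and 9160 none. Log2(intensity + 1) was used without further scaling. The level filter was the median mean log2 level of non-control probe sets, which 11848 of 18193 genes passed. The probe-set spread was taken from neighbouring probe sets of 1 gene in 10 bins of level, as a scaled median absolute difference divided by the square root of 2. Named genes were all members, the 3 largest differences of each related list past the filter, 5 stress genes in any case and the cell type markers. A few other probe sets of these genes are given where they disagree. Prdx4, P4ha1, Dnajc3, Manf and Dnajb11 were named after their values were seen. Members and lists were chosen with earlier results of these data known. The script was tested on simulated data. Alternatives were median, quantile and loess scaling, a pseudocount of 16, other level filters, a gene's mean over its probe sets, omission of probe sets whose ID suffix marks several possible transcripts, and other fold sizes. Python 3.11.15, numpy 2.4.6, pandas 2.3.3 and statsmodels 0.14.6 were used.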

Additional observations from a re-analysis of the deposited data

How the results depend on the processing

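No paired analysis was possible because each group had 1 array. The count of lower members was 7 or 8 under all alternatives, and their median log2 difference ranged from -0.11 (median centring, which also moves the median of all genes to -0.05) to -0.03 (mean over probe sets). Pdia3 ranged from -0.56 to -0.48. With the mean over probe sets, members lower by at least 0.32 numbered 1 in place of 2, Pdia4 had -0.058, Pdia6 0.27 and Ero1a -0.10, since a dimmer probe set of each went the other way, and 8 in place of 10 members kept their place in the order by signal. P4hb was below 0 in 2 of 8 settings, between -0.05 and 0.01. With 1 fixed base of the ER stress element free, 6 in place of 2 members held it. P4hb and Pdia5 had no value in 1 setting each. Without probe sets that can bind several transcripts the median was -0.06 for the partners and -0.11 for the ER chaperones. At 1.5-fold and at 3-fold, 0 members differed, as at 2-fold. Signals near the top of the range can hide differences, and probe sets below an intensity of 150.3 carry a spread above 1.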

Other observations

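Of 8 regulators of the unfolded protein response 3 were lower and 5 higher in the methionine-deficient pool (median log2 difference 0.16). Ern1, a sensor that splices Xbp1 RNA, had 1803 (control) and 3191 (methionine-deficient) (0.82, spread 0.18), while its second probe set past the filter had -0.43. Atf6, the sensor released to the Golgi, had 0.25, with its 2 other probe sets also higher at 0.30 and 0.05. Xbp1 had 64593 and 63985 (-0.01), Atf4 had -0.12 and, in another probe set, 0.11, all beside a spread of 0.18, and Ddit3 had 0.39 beside a spread of 0.60.

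Of 11 genes of thiol reduction, which opposes disulfide formation, 4 were lower and 7 higher (median 0.06). Thioredoxin (Txn1) had 20011 (control) and 15288 (methionine-deficient) (-0.39, spread 0.18), and its dim second probe set had -0.41. Thioredoxin reductase (Txnrd1) had 2435 and 1579 (-0.63, spread 0.18), but its second probe set past the filter had 0.66. Gclc, of glutathione synthesis, had 0.34 (spread 0.31).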
